A study of Mus musculus with 12 samples.

Results

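The nascent RNA of 6 genes was followed through the day in mouse liver: Bhlhb2, Gm129, Usp2, Upp2, Ccrn4l and Inmt. They were chosen by name, as repressors of the circadian clock or as genes that the clock is known to drive directly, and all 6 were found among the 21490 gene symbols of the table. The study had already listed Ccrn4l (Nocturnin), Upp2, Usp2 and Inmt as rhythmic in nascent RNA, from these same libraries, and in mRNA. Counts of the 6 genes set against all tested genes are therefore descriptions and not independent support. Livers came from wild-type C57BL/6 male mice, adults of 3 to 6 months, kept in cycles of 12 hr of light and 12 hr of darkness. Time is given as zeitgeber time (ZT), the hours since lights on, and the groups were ZT0, ZT4, ZT8, ZT12, ZT16 and ZT20, each with 2 libraries taken from 2 independent series. All 12 libraries share genotype and lighting regime, so comparisons were made between time points and no group was an untreated control. Nascent-Seq recovers RNA that is still attached to the chromatin of purified nuclei, and its signal is given here in reads per base pair of exon (rpbp), a scale on which genes of different length can be compared. How many livers went into a library is not given in the sources used here, and p-values measure the spread between these 12 libraries.

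The liver clock is a loop of transcription. The activators CLOCK and BMAL1 bind E-boxes in the promoters of their target genes, and repressors made from some of those targets then shut the activators off. BHLHB2 (DEC1) is a basic helix-loop-helix repressor that competes at E-boxes, GM129 (CHRONO) binds BMAL1 and represses it, and USP2 is a ubiquitin-specific protease that acts on clock proteins. The remaining genes are outputs in metabolism. UPP2 is the uridine phosphorylase of liver, CCRN4L (nocturnin) was first described as a deadenylase and later as a phosphatase of NADP(H), and INMT transfers methyl groups to indole amines.

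E-boxes were searched for in the promoters that RefSeq gives for these genes, because the E-box is the element that the clock activators and the DEC repressors read. RefSeq promoters (build GRCm38.p6, 250 bases before the start site and 50 after it) were at hand for 5 of the 6 genes, under the names Ciart for Gm129 and Noct for Ccrn4l. Bhlhb2 (Bhlhe40) had no entry. The promoters shown are those with a match, Gm129 and Usp2, and those of the genes whose 24-hr rhythms peaked latest and earliest, Ccrn4l and Inmt. Capitals mark exact matches, on either strand, to the E-box CACGTG or its variant CACGCG. On the other strand that variant reads CGCGTG. Each runs 5′ to 3′ in the direction of its gene.
Gm129, chr3:95882179-95882478, minus strand: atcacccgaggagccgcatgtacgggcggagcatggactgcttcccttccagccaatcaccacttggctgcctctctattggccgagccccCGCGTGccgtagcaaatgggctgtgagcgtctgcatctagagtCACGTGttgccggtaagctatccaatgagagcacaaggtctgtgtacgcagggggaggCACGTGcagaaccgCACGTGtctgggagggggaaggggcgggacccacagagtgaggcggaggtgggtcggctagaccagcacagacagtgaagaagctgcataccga
Usp2, chr9:44084670-44084969, plus strand: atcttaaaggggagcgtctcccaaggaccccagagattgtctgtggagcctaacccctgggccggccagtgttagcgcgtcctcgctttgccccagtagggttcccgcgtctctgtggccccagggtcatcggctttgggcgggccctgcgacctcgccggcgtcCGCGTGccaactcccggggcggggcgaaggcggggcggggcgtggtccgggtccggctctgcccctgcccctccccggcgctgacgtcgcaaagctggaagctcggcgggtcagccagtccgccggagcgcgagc
Ccrn4l, chr3:51224197-51224496, plus strand: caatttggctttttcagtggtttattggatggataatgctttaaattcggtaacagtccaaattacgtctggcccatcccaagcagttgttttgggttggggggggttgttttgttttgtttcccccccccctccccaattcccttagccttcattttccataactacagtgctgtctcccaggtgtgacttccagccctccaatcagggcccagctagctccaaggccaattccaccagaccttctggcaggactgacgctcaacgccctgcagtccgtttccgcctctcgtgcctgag
Inmt, chr6:55174941-55175240, minus strand: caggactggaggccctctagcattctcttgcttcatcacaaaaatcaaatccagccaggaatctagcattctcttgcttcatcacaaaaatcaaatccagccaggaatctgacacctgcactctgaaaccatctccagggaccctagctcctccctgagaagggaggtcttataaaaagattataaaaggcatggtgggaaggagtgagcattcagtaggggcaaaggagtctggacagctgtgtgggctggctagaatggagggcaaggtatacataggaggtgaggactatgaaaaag

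The Gm129 promoter held 3 copies of CACGTG, which began 116, 58 and 44 bases before the start site, and 1 copy of CACGCG 159 bases before it. CACGTG was present in 7.15% of the 32851 promoters of the same length, and 3 or more copies in 0.0883% of them. The Usp2 promoter held 1 CACGCG, 85 bases before the start, a variant found in 9.27% of all promoters. None of the motifs searched for was in the promoter windows of Ccrn4l, Inmt or either of the 2 promoters listed for Upp2. The others searched for were CACGTT (4.68% of all promoters), the D-box letters TTATGTAA (0.938%) and TTACGTAA (0.119%), and TAGGTCA, the half-site read by ROR and REV-ERB receptors (2.61%). Each of these sequences also stood once, letter for letter, in the older build mm9 that the signal table uses. There the Gm129 window began at position 95686102 of chromosome 3 and the Usp2 window at 43892753 of chromosome 9. The span that the table gives for Usp2 begins at 43875104. The Usp2 window therefore lies inside that span, and the bases around the start of the span were not searched.

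A gene was tested when it exceeded 6 rpbp in at least 1 library, which 6284 symbols did. All 6 genes passed, but Gm129 did so only in its 2 ZT12 libraries and Usp2 only in 1 of them, so that both were admitted through their highest time point. The deposited signal carries no read counts, and the totals of mapped reads that the study gives for its libraries were not used here. The sum of signal per library ranged from 118342 to 160545, and the median tested gene deviated from its own mean by -0.20 to 0.13 (log2) in the 12 libraries, lowest in ZT16 replicate 2. ZT8 and ZT20 libraries were run in 2 lanes each and the other 8 in 1 lane, so lane number and time point cannot be told apart, except that time points 12 hr apart had the same number of lanes. Summed hepatocyte markers (10 of 10 genes in the table) ranged from 977.3 to 2837 rpbp, against 17.9 to 51.2 for 6 Kupffer and macrophage markers and 10.9 to 25.5 for 6 endothelial markers. Markers of stellate cells (6 genes), bile duct cells (4 of 5) and blood cells (4 of 6) summed to at most 8.3, 2.2 and 8.2 rpbp. The highest Kupffer, endothelial and blood cell sums were those of ZT8 replicate 1, and the lowest Kupffer and endothelial sums those of ZT8 replicate 2. Hepatocyte markers summed to 1333.5 rpbp in ZT8 replicate 1 and 2100.3 in ZT8 replicate 2. The part of these differences in the results was not tested.

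By the rhythm criteria that follow, 5 of the 6 genes had a daily rise and fall and Bhlhb2 was not called. The signal of Gm129, Usp2, Upp2 and Ccrn4l was highest at ZT12, around lights off, and that of Inmt at ZT8. F24, the share of the variance of the 12 values that a 24-hr cosine carries, was 0.791 for Upp2, 0.724 for Usp2, 0.587 for Ccrn4l, 0.558 for Inmt, 0.510 for Gm129 and 0.0305 for Bhlhb2. The rhythmic call asks for F24 above 0.45, for a maximum more than 1.5 times the minimum, and for a one-sided permutation p below 0.05 before adjustment. By this rule 5 of the 6 genes were called, against 15.2% of all tested genes. After Benjamini-Hochberg adjustment over all tested genes, 1 of the 6 (Usp2, adjusted permutation p = 0.0455) stayed under 0.05, as did 0.621% of all tested genes. In bulk liver, fewer cells of a type and less RNA per cell cannot be told apart.

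**Figure D1:**
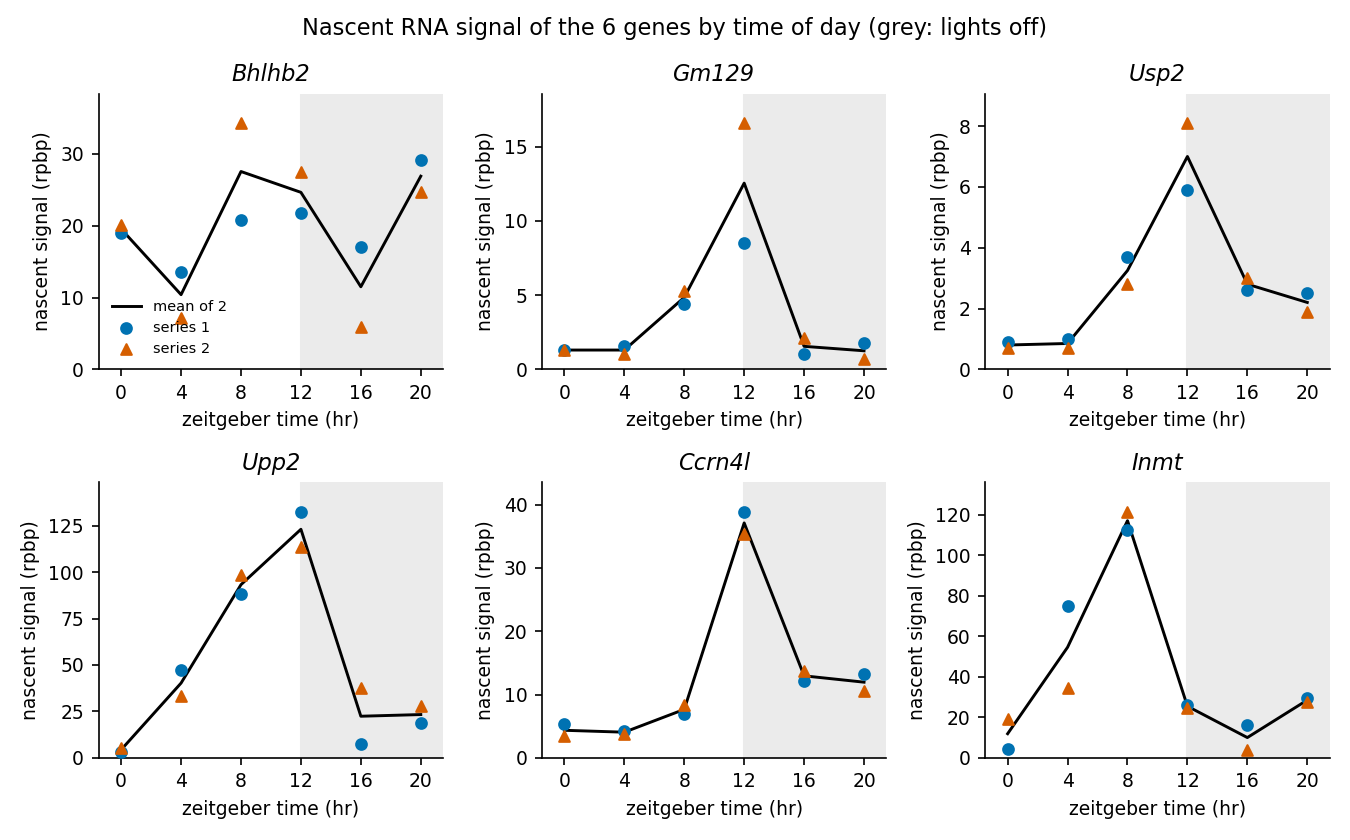
Nascent signal (rpbp, linear axes from 0) of each gene against zeitgeber time in hours, with circles for series 1, triangles for series 2, a line through the means of 2 libraries and grey for darkness. Gm129, Usp2, Upp2 and Ccrn4l have both ZT12 libraries on top, Inmt has both ZT8 libraries on top (112.5 and 121.5 rpbp), and Bhlhb2 dips at ZT4 and ZT16.

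Bhlhb2 lies on the plus strand of chromosome 6 at mm9 108610623-108616919, a protein-coding gene with 3272 merged exon bases. Its signal in series 1 was 19.0 rpbp at ZT0, 13.6 at ZT4, 20.8 at ZT8, 21.8 at ZT12, 17.1 at ZT16 and 29.1 at ZT20. In series 2 it was 20.1, 7.2, 34.3, 27.5, 5.9 and 24.7 rpbp at the same times. Both series were lower at ZT4 and at ZT16 than at any other time, although in series 2 the dips were deeper. The highest time-point mean was 27.6 rpbp ± 9.55 (SD, n = 2) at ZT8 and the lowest 10.4 ± 4.53 at ZT4, a ratio of 2.65 (1.53 in series 1 and 4.76 in series 2). Of the 5 pairs of neighbours in the order of its time-point means, 2 were separated: ZT12 lay above ZT0, and ZT0 above ZT16, in every library. ZT8, ZT20 and ZT12 overlapped in their replicates, as did ZT16 and ZT4.

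A 24-hr cosine carried almost none of the Bhlhb2 variance (one-sided permutation p = 0.864, 12 libraries), and its F24 ranked 5814 among the 6284 tested genes. The time-point F test of limma on log2(rpbp + 1) gave an adjusted p of 0.121, which fell to 0.0219 when ZT16 replicate 1 was left out. A cosine with a 12-hr period, fitted after the 2 dips had been seen, carried 70.8% of the variance (permutation p = 0.00215), a share that ranked 78 among all tested genes. The p adjusted over all tested genes was 0.222, and no tested gene had an adjusted p under 0.05 in this added test, while 12.7% had an unadjusted p under 0.05. A 12-hr period groups ZT8 with ZT20, the time points run in 2 lanes. Part of this component can therefore not be told apart from lane number. Over the time points of 1 lane alone, the limma F test gave Bhlhb2 an adjusted p of 0.267. The mean of Bhlhb2 over the 12 libraries (20.1 rpbp) was above that of 88.5% of the tested genes, and its SD over mean above that of 82.9%. Reads on the opposite strand are counted with it. The antisense transcript AK039720, which overlaps the start of Bhlhb2 and was at 0.8 to 4.5 rpbp, had a correlation of r = 0.88 with it over the 12 libraries, which share their scaling. Reads in the overlap can be counted for both symbols, so the 2 signals are not independent.

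Gm129 lies on the minus strand of chromosome 3 at 95682428-95686151 (2261 merged exon bases). In series 1 its signal was 1.3, 1.6, 4.4, 8.5, 1.0 and 1.8 rpbp from ZT0 to ZT20, and in series 2 it was 1.3, 1.0, 5.3, 16.6, 2.1 and 0.7 rpbp. ZT0, ZT4, ZT16 and ZT20 lay at 2.1 rpbp or less in every library, ZT8 stood above all of these, and ZT12 above ZT8. The ZT12 mean was 12.6 rpbp ± 5.73 (SD, n = 2), 2.59 times the ZT8 mean and 10.04 times the ZT20 mean, with a ratio to ZT20 of 4.72 in series 1 and 23.7 in series 2. ZT12 held 55.04% of the sum of the 6 time-point means, the largest such share among the 6 genes. F24 was 0.510 (permutation p = 0.00185, adjusted p = 0.0945), and the limma F test across time points gave an adjusted p of 0.00894. The overlapping symbol AK044447 on the opposite strand stayed at 0.3 to 1.3 rpbp.

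Usp2 lies on the plus strand of chromosome 9 at 43875104-43903710 (4384 merged exon bases). Its signal in series 1 was 0.9, 1.0, 3.7, 5.9, 2.6 and 2.5 rpbp from ZT0 to ZT20, and in series 2 it was 0.7, 0.7, 2.8, 8.1, 3.0 and 1.9 rpbp. Both libraries of ZT12 exceeded all others, and both libraries of ZT0 and ZT4 were below all others. The mean rose from 0.800 rpbp ± 0.141 (SD, n = 2) at ZT0 to 7.0 ± 1.56 at ZT12, an 8.75-fold difference that was 6.56-fold in series 1 and 11.6-fold in series 2. Through the night it did not return at once to its low point, with 2.80 rpbp ± 0.283 at ZT16 and 2.20 ± 0.424 at ZT20. F24 ranked 170 among tested genes (permutation p = 0.0002), and the limma F test gave an adjusted p of 0.00424. At a mean of 2.82 rpbp over the 12 libraries, Usp2 had the lowest level of the 6, above only 1.34% of the tested genes. Rnf26, which overlaps it on the opposite strand, stayed at 0.4 to 0.8 rpbp.

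Upp2 spans 225.6 kb of chromosome 2 on the plus strand (58419794-58645381, 7053 merged exon bases) and had the highest signal of the set. In series 1 it was 3.3, 47.1, 88.3, 132.6, 7.2 and 18.8 rpbp from ZT0 to ZT20, and in series 2 it was 5.4, 33.4, 98.2, 113.5, 37.6 and 27.8 rpbp. The signal rose at each step from ZT0 to ZT12 in both series, and the 2 libraries of a time point did not overlap those of the next along this rise. The ZT12 mean of 123.1 rpbp ± 13.5 (SD, n = 2) was 28.3 times the ZT0 mean of 4.35 ± 1.48, the widest ratio of the 6 genes (40.2 in series 1 and 21.0 in series 2). At ZT16 the replicates disagreed (7.2 and 37.6 rpbp), one below and one above both ZT20 libraries. F24 was 0.791 (permutation p = 0.00119, adjusted p = 0.0800) and the limma F test gave an adjusted p of 0.00986. Both Upp2 promoters lie within or at the start of this span, and a signal summed over exons does not tell their transcripts apart.

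Ccrn4l lies on the plus strand of chromosome 3 at 51028369-51055495 (10658 merged exon bases). Its signal in series 1 was 5.3, 4.3, 7.0, 38.9, 12.2 and 13.3 rpbp from ZT0 to ZT20, and in series 2 it was 3.4, 3.8, 8.3, 35.3, 13.7 and 10.6 rpbp. The 2 series were closest to each other in this gene, with 0.908% of the variance between the libraries of a time point. The ZT12 mean of 37.1 rpbp ± 2.55 (SD, n = 2) was 9.16 times the ZT4 mean of 4.05 ± 0.354 (9.05 in series 1 and 9.29 in series 2). It was also 2.86 times the next highest mean, that of ZT16 (13.0 ± 1.06). All values of ZT16 and ZT20 lay above those of ZT0, ZT4 and ZT8. F24 was 0.587 (permutation p = 0.00203, adjusted p = 0.0989), and a further 23.3% of the variance lay in the 12-hr component and 17.1% in the 8-hr component. By the limma F test, which allows any shape, Ccrn4l had the lowest adjusted p of the 6 (0.00113).

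Inmt lies on the minus strand of chromosome 6 at 55120621-55124984 (1600 merged exon bases). Its signal in series 1 was 4.4, 74.7, 112.5, 26.2, 16.1 and 29.7 rpbp from ZT0 to ZT20, and in series 2 it was 19.4, 34.4, 121.5, 24.7, 3.9 and 27.3 rpbp. Both ZT8 libraries were above all others and both ZT4 libraries came next, so that its highest time point was the one before that of the other rhythmic genes. The ZT8 mean was 117.0 rpbp ± 6.36 (SD, n = 2), 11.7 times the ZT16 mean of 10 ± 8.63, a ratio of 6.99 in series 1 and 31.2 in series 2. At the low end the series differed, since the lowest library was ZT16 in series 2 and ZT0 in series 1. F24 was 0.558 (permutation p = 0.0155, adjusted p = 0.191) and the limma F test gave an adjusted p of 0.0341. The rhythmic call was lost on log2(rpbp + 1), where F24 was 0.464 and the permutation p 0.0635. With lanes as a block F24 was 0.849. Lane number takes nothing from a 24-hr cosine at these time points, so this block could not lower F24. The F-test call was lost with a replicate block (adjusted p = 0.0514) and when any of 7 libraries was left out.

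**Figure D2:**
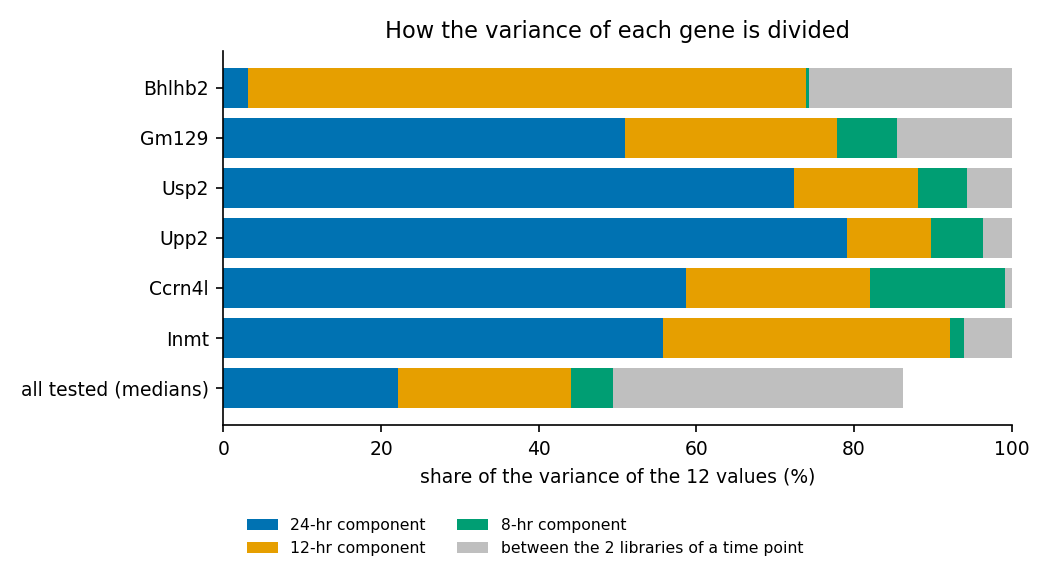
Percent of the variance of the 12 rpbp values of each gene in the 24-hr, 12-hr and 8-hr components of the time-point means and between the 2 libraries of a time point (stacked bars). The bottom bar stacks the medians over all tested genes, which need not sum to 100. Bhlhb2 has 70.8% in the 12-hr component, whereas the other genes have 51.0% to 79.1% in the 24-hr component.

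Both libraries of 1 time point stood above the other 10 libraries in 5 of the 6 genes, against 19.8% of all tested genes. For Gm129 and Usp2 this was the time point through which they were admitted to testing. In those 5 genes the 24-hr component took 51.0% to 79.1% of the variance, so that the 12-hr component had to be smaller. It ranged from 10.7% in Upp2 to 36.4% in Inmt. The time-point F test of limma also called 5 of the 6, against 7.65% of all tested genes. Spread between the 2 libraries of a time point took 0.908% to 14.5% of the variance in the 5 genes and 25.7% in Bhlhb2, while the median of all tested genes was 36.7%. A gene with a high F24 has less variance left for this share.

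**Figure D3:**
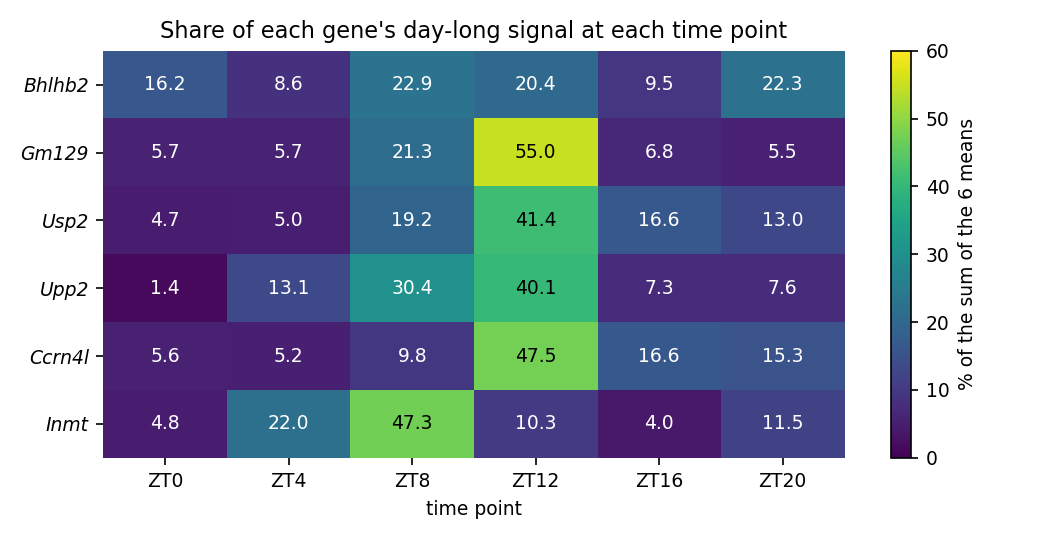
Each cell gives the mean signal of a time point (columns) as a percent of the sum of the 6 time-point means of that gene (rows), with brighter colours for larger shares. ZT12 holds 40.1% to 55.04% in Gm129, Usp2, Upp2 and Ccrn4l, ZT8 holds 47.3% in Inmt, and no time point holds more than 22.9% in Bhlhb2.

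The 5 rhythmic genes followed each other through the second part of the day. The fitted 24-hr peak was at 7.14 hr for Inmt, 10.2 hr for Upp2, 11.2 hr for Gm129, 12.4 hr for Usp2 and 13.2 hr for Ccrn4l. Fitted separately, the 2 series gave phases that were 0.212 hr (Ccrn4l) to 0.787 hr (Upp2) apart, and the pairs of phases of neighbours in this order did not overlap. With each library left out in turn, the phases of Upp2 (9.88 to 10.9 hr) and Gm129 (10.6 to 11.9 hr) overlapped, as did those of Usp2 (12.1 to 12.8 hr) and Ccrn4l (12.6 to 13.6 hr). Inmt (6.62 to 7.69 hr) stayed apart from the other 4 genes. Samples were 4 hr apart, and differences in phase were not tested.

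**Figure D4:**
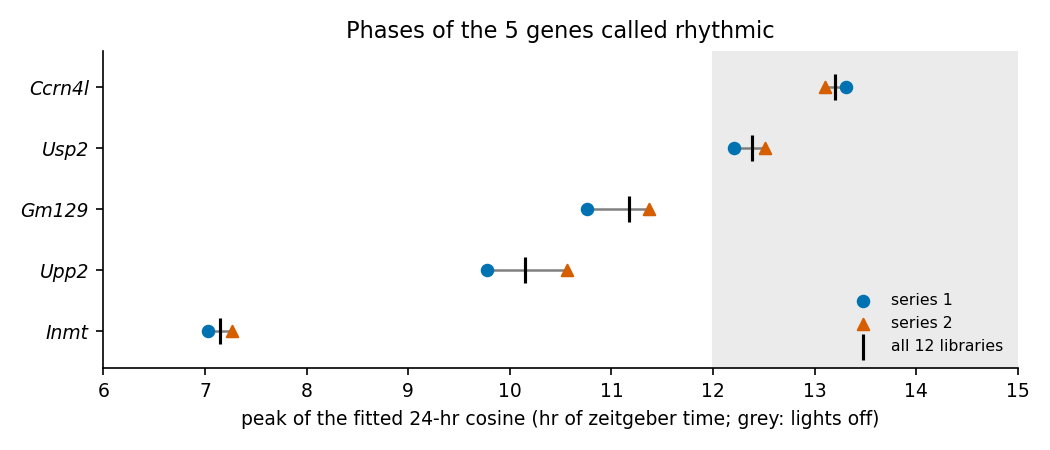
Peak time of the fitted 24-hr cosine, in hours of zeitgeber time, for series 1 (circles), series 2 (triangles) and all 12 libraries (bars), with grey for darkness. Inmt peaks at 7.14 hr and Ccrn4l at 13.2 hr, and the 2 series lie at most 0.787 hr apart.

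A single series of 6 values has 720 orders, so its exact one-sided permutation test cannot give a p under 0.0167. In series 2 alone, Upp2 (F24 0.883, exact p = 0.0167) and Usp2 (F24 0.729, exact p = 0.0333) were called rhythmic. That was 2 of the 6 genes, against 2.72% of all tested genes. Usp2 exceeded the threshold of 6 rpbp only in ZT12 replicate 2 (8.1 rpbp), the highest value of series 2. Its call in this series is therefore not independent of the filter. In series 1 alone 0 of the 6 were called by this exact permutation test, against 4.14%, and the F24 of the 5 rhythmic genes was 0.529 to 0.787.

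Time points 12 hr apart, which had the same number of lanes, were then compared with limma on log2(rpbp + 1), with p adjusted over all tested genes. Between ZT0 and ZT12, the end of the night and the end of the day, 4 of the 6 genes differed, against 4.44% of all tested genes, and all 4 were lower at ZT0. Of these, Gm129 and Usp2 exceeded the threshold of 6 rpbp only at ZT12, so the filter itself favoured this direction for them. The log2 difference was -4.56 ± 0.562 (SE) for Upp2 (adjusted p = 0.00283), -2.85 ± 0.221 for Ccrn4l (0.000369), -2.49 ± 0.345 for Gm129 (0.00412) and -2.14 ± 0.217 for Usp2 (0.00146). Inmt (-1.33 ± 0.652, limma adjusted p = 0.316) and Bhlhb2 (-0.31 ± 0.431, 0.760) did not pass. The Inmt difference was -0.37 without ZT0 replicate 1 and -2.29 without ZT0 replicate 2, and that of Bhlhb2 -0.47 without ZT12 replicate 1 and -0.15 without ZT12 replicate 2. Summed hepatocyte markers were also higher at ZT12 (2494 and 2690 rpbp) than at ZT0 (977.3 and 1817), 1.86-fold between the means, and their part in the result was not tested. These markers did not move alike. Pck1 alone had a mean of 64.45 rpbp at ZT0 and 642.55 at ZT12, whereas Apob had its lowest mean at ZT12 (126.85 rpbp). Without ZT0 replicate 1, the Gm129 and Upp2 calls were lost (limma adjusted p = 0.0587 and 0.0548) at differences of -2.49 and -4.27.

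Between ZT4 and ZT16, 2 of the 6 genes differed, against 2.1% of all tested genes. Ccrn4l was lower at ZT4 by a log2 difference of -1.47 ± 0.221 (SE, limma adjusted p = 0.0161), with 4.05 rpbp at ZT4 and 13.0 at ZT16. Usp2 was lower at ZT4 by -1.04 ± 0.217 (limma adjusted p = 0.0393), with 0.850 and 2.80 rpbp. With a replicate block the adjusted p of Usp2 was 0.0505. The Usp2 call was lost in 8 of 11 fits that left out 1 library, namely either library of ZT0, ZT4, ZT16 or ZT20 (limma adjusted p = 0.0510 to 0.248). Ccrn4l lost its call without ZT4 replicate 1 (limma adjusted p = 0.0821) or ZT4 replicate 2 (0.101). Of all 132 genes called here, 63.6% were higher at ZT4, a share that was 41.9% once libraries were scaled by their median ratio, while Ccrn4l and Usp2 were lower at ZT4 under both scalings. The Inmt difference was of the opposite sign and larger (2.50 ± 0.652) without passing (limma adjusted p = 0.0804), and it ranged from 1.60 without ZT16 replicate 2 (adjusted p = 0.283) to 3.40 without ZT16 replicate 1, where it passed (0.0222). The Upp2 difference (1.19 ± 0.562, limma adjusted p = 0.276) was 0.08 without ZT16 replicate 1 (0.912) and 2.31 without ZT16 replicate 2 (0.0165).

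Between ZT8 and ZT20 limma called 0 of the 6 genes, against 1.58% of all tested genes, while 4 of the 6 had an unadjusted p under 0.05, against 12.6% of all tested genes. Of these, 3 were higher at ZT8: Inmt by a log2 difference of 2.00 ± 0.652 (SE, limma adjusted p = 0.190), Upp2 by 1.98 ± 0.562 (0.133) and Gm129 by 1.42 ± 0.345 (0.0822). Ccrn4l was lower at ZT8 by -0.58 ± 0.221 (limma adjusted p = 0.282). Bhlhb2 had means of 27.6 rpbp at ZT8 and 26.9 at ZT20, and none of the comparisons 12 hr apart called it.

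**Figure D5:**
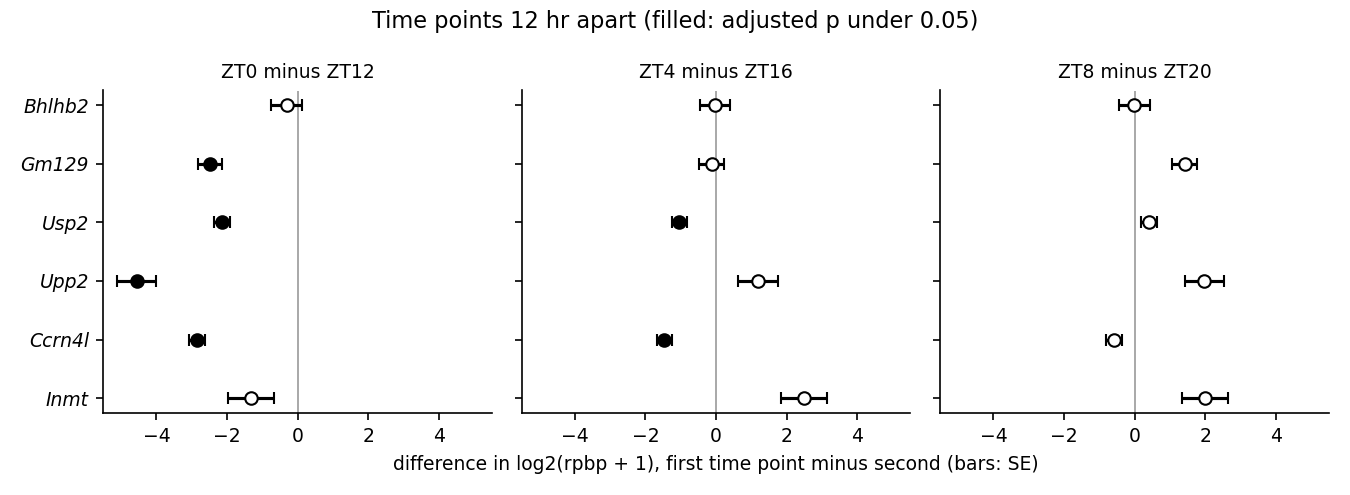
Difference in log2(rpbp + 1) between time points 12 hr apart, first minus second, for each gene, with SE bars and filled points where the limma adjusted p was under 0.05. At ZT0 against ZT12 the filled points are Gm129, Usp2, Upp2 and Ccrn4l (-4.56 to -2.14), and at ZT4 against ZT16 they are Usp2 and Ccrn4l.

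To see which genes had the most similar profiles, each of the 6 was correlated with every tested gene over the 12 libraries on log2(rpbp + 1), leaving out symbols within 10 kb. The libraries share their scaling and their time points, so these values are descriptions. Usp2 was most like Per1 (r = 0.96), a repressor of the clock that also peaked at ZT12 (23.6 rpbp) and was lowest at ZT4 (0.850 rpbp). Ccrn4l was itself among the 3 genes most like Usp2 (r = 0.91), and Usp2 among the 3 most like Ccrn4l, beside Trp53inp2 (r = 0.93) and AK153988 (r = 0.92). The third gene near Usp2 was 1200013P24Rik (r = 0.93).

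Gm129 was most like Trak1 (r = 0.91), Fbxo22 (r = 0.90) and Nrg4 (r = 0.89), of which Fbxo22 and Nrg4 overlap in position and can share reads. Upp2 was most like Ngef (r = 0.92), Mat1a (r = 0.91), which makes the methyl donor S-adenosylmethionine, and IL15ra (r = 0.90), all lowest at ZT0 and highest at ZT12. Inmt was most like Arts1 (r = 0.95), Vti1a (r = 0.94) and Cyb5 (r = 0.94), all highest at ZT8. Bhlhb2 was most like C530044N13Rik (r = 0.91), the alcohol dehydrogenase Adh1 (r = 0.88) and AK044623 (r = 0.86), none of which was called rhythmic. With rank correlation 0 of these 3 genes were named again for Bhlhb2, Gm129, Ccrn4l and Inmt, 1 for Usp2 and 2 for Upp2, so the names depend on the measure. Among the 6 genes the closest pair was Usp2 and Ccrn4l, followed by Gm129 and Usp2 (r = 0.85), and the farthest was Ccrn4l and Inmt (r = -0.14).

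Relatives of the 6 genes were counted in the same way, from lists of names that need not hold every member of a family. Over all tested genes 15.2% were called rhythmic and 7.65% by the limma F test. The list of USP deubiquitinases held 34 genes other than Usp2, all of them in the table. Of these 21 were tested, 1 was called rhythmic (Usp8, F24 0.60, peak at 4.74 hr) and 0 were called by the limma F test. Their median F24 was 0.181, against 0.222 for all tested genes. Of the enzymes of pyrimidine salvage and breakdown 7 were tested and 1, the thymidine kinase gene Tk1, was called rhythmic and by the F test (F24 0.489, 24.7 rpbp at ZT12 and 6.35 at ZT0). Upp1, the other uridine phosphorylase, was at 0 to 0.6 rpbp and was not tested. None of 7 tested genes on a list of deadenylases and related genes was called by either rule (median F24 0.205).

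Of 10 tested methyltransferases of small molecules, the class to which Inmt belongs, 1 was called rhythmic and 3 by the limma F test. The shares over all tested genes were 15.2% and 7.65%. Gamt, which makes creatine, was called by both, with a peak at ZT8 (35 rpbp ± 19.9, SD, n = 2) and 6.80 ± 1.13 at ZT16. Nnmt, which methylates nicotinamide, had its highest mean at ZT12 (34.4 rpbp) and lowest at ZT8 (7.15 rpbp). Bhmt, which methylates homocysteine, was highest at ZT20 (85.1 rpbp) and lowest at ZT4 (8.65 rpbp). Among relatives of Bhlhb2, Bhlhb3 (DEC2) reached 2.6 rpbp at most and was not tested. Hes6 was the only tested gene (F24 0.124) of the 9 listed relatives found in the table.

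The core clock genes served as a reference for timing. All 3 clock activators tested and all 5 PER and CRY repressors were called rhythmic, as were 4 of 4 REV-ERB and ROR receptors and 3 of 4 D-box factors. The fitted peaks of the receptor genes Nr1d1 (6.22 hr) and Nr1d2 (8.54 hr) and of the D-box factor Dbp (8.38 hr) lay on either side of Inmt. Those of Per3 (10.8 hr), Cry2 (11.9 hr), Per1 (12.8 hr) and Per2 (14.3 hr) began among those of Upp2, Gm129, Usp2 and Ccrn4l and ended after them, and Cry1 peaked later still (18.7 hr).

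Genes next to the 6 were checked because the signal ignores strand. Bhlhb2, Gm129 and Usp2 each had 1 overlapping symbol, all of them below the signal needed for testing. Acvr1, which ends 555 bases before the Upp2 span, was at 5.0 to 7.4 rpbp and was not called rhythmic. Its F24 was 0.502 (permutation p = 0.0315, peak at 23.9 hr), and it missed the call only by the ratio of its maximum to its minimum. Elf2, which lies 4092 bases beyond Ccrn4l on the opposite strand, ranged from 6.6 to 10.6 rpbp and was called rhythmic (F24 0.592, permutation p = 0.0143, peak at 11.5 hr). Inmt had no other symbol within 10 kb.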

How the data were processed

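Nascent RNA of 12 mouse liver libraries, 2 at each of 6 time points, was analysed from 1 table. The authors purified nuclei, extracted chromatin-bound RNA, removed polyadenylated RNA and aligned reads to mm9 with TopHat (CASAVA 1.7 upstream, per the labels). The deposited signal is coverage over merged exons divided by their length, regardless of strand, scaled by the authors to 1 library size and rounded to 1 decimal. It is not a read count, so no count model was used. Deposited F24, phase and p-value columns of the authors were not used.

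Groups came from the labels. Tests covered symbols that exceeded 6 rpbp in 1 library or more. F24 used linear values and 100000 permutations. Differences used limma 3.58.1 (R 4.3.3) on log2(rpbp + 1), with Benjamini-Hochberg adjustment over all 6284 tested symbols. Both steps were checked on simulated data. Exon GC content came from NCBIM37 with GENCODE M1 (86.5% of tested symbols). The text names the 6 genes, the 3 genes most like each, symbols within 10 kb, and relatives or clock genes on lists. Genes and lists were chosen with earlier results of these data known. Same-numbered libraries deviated together only in part: the 15 correlations of their deviations had a median of 0.073 (-0.12 to 0.32), and 5 exceeded 0.1.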

Additional observations from a re-analysis of the deposited data

How the results depend on the processing

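Rhythm. The call of 5 genes was kept in number, at 4 or 5, under all alternatives except the adjusted permutation p (1 gene), and at 4 or 5 with each library left out. Over all tested genes, 954 calls became 509 at a threshold of 12 rpbp, 2221 with no threshold and 39 with the adjusted p. Inmt lost its call on log2(rpbp + 1) (F24 0.464, permutation p = 0.0635) and log2(rpbp + 0.1) (0.451, permutation p = 0.0703). With lanes as a block, which cannot lower F24 at these time points, 5 of the 6 were called, and the F24 of Inmt was 0.849. F12 of Bhlhb2, chosen after seeing the data, ranged from 0.651 to 0.778 over its alternatives, which did not include lanes as a block.

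Time-point F test. With no threshold 133 genes in all and 2 of the 6 were called, with adjusted p of 0.0529 for Gm129, 0.0590 for Upp2 and 0.128 for Inmt. Only time points of 1 lane gave 119 genes. Inmt also missed with log2(rpbp + 0.1) (0.0506), with the replicate block (0.0514) and with 1-lane time points (0.198). With each library left out in turn, 167 to 663 genes were called, and 3 to 6 of the 6. The adjusted p then ranged from 0.0106 to 0.0991 for Inmt (over the threshold in 7 of 12), from 0.000328 to 0.0508 for Upp2 (over it without ZT0 replicate 1) and from 0.0219 (without ZT16 replicate 1) to 0.241 for Bhlhb2.

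Contrasts. For ZT0 against ZT12, leaving out each library gave 25 (without ZT0 replicate 1) to 391 genes and 2 to 4 of the 6. For ZT4 against ZT16, 84 genes and 1 of the 6 were called at 12 rpbp, 24 and 1 with no threshold, and 1 of the 6 with the replicate block, and leaving out each library gave 22 to 259 genes and 0 to 2 of the 6. For ZT8 against ZT20, 45 genes were called with no threshold, 4 to 166 with each library left out, and 0 or 1 of the 6 (Upp2, without either ZT16 library). Differences close to 0 changed sign when 1 library was left out: Bhlhb2 between ZT4 and ZT16 (-0.73 to 0.67) and between ZT8 and ZT20 (-0.35 to 0.34), and Gm129 between ZT4 and ZT16 (-0.44 to 0.19). The replicate block changed no other call among the 6 genes.

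Limits. Leaving out a library leaves a time point with 1 library, which is then assumed to vary like the others, and Usp2 is not tested without ZT12 replicate 2 or at 12 rpbp. Only 2 libraries per time point limit every mean, and Usp2 and Gm129 exceeded 6 rpbp in only 1 and 2 libraries.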
